A study of Mus musculus with 6 samples.

Results

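Described here are 10 genes that protect cells from oxidative damage and from ferroptosis, or that set how sensitive a cell is to it: Nqo1, Hmox1, Txnrd1, Slc7a11, Gclc, Gclm, Gpx4, Aifm2, Acsl3 and Acsl4. They were taken by gene symbol from the 55385 genes in the files, and all 10 were among the 19427 genes that could be tested. RNAseq was carried out on mammary tumors of female NeuT/ATTAC mice, which carry an MMTV-driven, constitutively active rat ErbB2[V664E] transgene and an FKBPv-caspase-8 fusion driven by the FABP4 promoter. Both groups are described as NeuT/ATTAC+AP mice: from 6 weeks of age they received 0.4 mg/kg of the dimerizer AP20187 by i.p. injection 3 times per week, which partly ablates mammary fat and leaves fibrotic tissue in its place. The 3 control libraries came from mice without DMHCA, and the 3 DMHCA libraries from mice given the LXR agonist DMHCA as 0.05% of the diet, about 100 mg/kg, from 8 weeks of age. The wording of the control treatment in the labels is open to a reading as AP20187 in vehicle or as vehicle alone, and the labels name the tissue as fibrotic mammary gland where the study's text describes tumors.

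Ferroptosis is an iron-dependent form of cell death in which peroxides of polyunsaturated membrane lipids accumulate. Cells hold it back by importing cystine to make glutathione, which Gpx4 uses to reduce lipid peroxides, and by keeping coenzyme Q in its reduced, radical-trapping form through Aifm2, also called FSP1. Several of these genes, among them Nqo1, Hmox1, Gclc, Gclm, Slc7a11 and Txnrd1, are known targets of the transcription factor NRF2 (Nfe2l2), which binds antioxidant response elements and is held in check by Keap1. Acsl4 and Acsl3 load different fatty acids onto coenzyme A: Acsl4 prefers polyunsaturated ones and is known to favor ferroptosis, whereas Acsl3 activates monounsaturated ones and is known to oppose it, so that Acsl4 is on the list as a determinant of sensitivity and not as a defense.

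Because NRF2 acts through antioxidant response elements, the promoter windows of these genes were searched for the core of that element. RefSeq windows on GRCm38.p6, from 250 bases before to 50 bases after each transcript start, were at hand for 8 of the 10 genes (13 windows), all but Hmox1 and Gclc. The core TGACNNNGC, searched on both strands, was found in 2 of the 13 windows, beside 12.4% of all 32817 windows. The matches lay in Gclm, whose product is the modifier subunit of the enzyme that starts glutathione synthesis, and in 1 of 3 windows of Txnrd1, and each is shown on the strand of its gene with the match, which reads on the opposite strand, in capitals.
Gclm: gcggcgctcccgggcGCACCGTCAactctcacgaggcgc
Txnrd1: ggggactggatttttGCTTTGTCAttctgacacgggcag
The Gclm stretch is chr3:122245408-122245446 on the plus strand, and its match begins 134 bases before the transcript start. The Txnrd1 stretch is chr10:82859099-82859137 on the plus strand, with the match 92 bases before an alternative start inside the gene. These matches describe letters in a window and not bound sites.

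The libraries held 46358654 to 63420620 counts (rounded expected counts) in the control group and 52330938 to 55539411 in the DMHCA group. DMHCA libraries 1 and 3 were nearly identical: their coefficient of variation beyond sampling noise was 0.0327, beside 0.376 to 0.579 for the other pairs within a group, and 18.2% of genes differed between them by a chi-square test, beside 82.0% to 87.0%. They were counted as 1 sample with their counts summed, so that the comparison rests on 3 control and 2 DMHCA samples, and values of both libraries are shown. Expected counts of Txnrd1, Nqo1, Hmox1, Gclc and Acsl4 were whole numbers in every library, whereas those of Gclm, Slc7a11, Gpx4, Aifm2 and Acsl3 were not, since RSEM had divided some of their reads with other genes. The text of the study describes tumors of 3 treated mice, so the merged count departs from the number described there, and p-values measure the spread between the samples as counted here. As markers of the tissue, the 5 epithelial genes Krt8, Krt18, Krt19, Epcam and Cdh1 summed to 2930 to 3591 TPM (RSEM's level per transcript length, scaled to the same total in each library) in control and 4063 to 4422 TPM in DMHCA libraries. The higher sum came from Krt8 and Krt18, whereas Krt19, Epcam and Cdh1 overlapped between groups and were fitted lower (median log2 fold change of the 5 genes -0.09). Control 3 stood apart in other cell markers, with summed TPM of 1482 for 5 macrophage genes, 1208 for 5 fibroblast genes, 914 for 5 adipocyte genes, 269 for 5 B cell genes and 143 for 5 T cell genes, the highest of the 6 libraries in each case. Within the fibroblast list this came from Dcn, Col3a1 and Pdgfra, while Col1a1 and Col1a2 were higher in control 1 (162 and 186 TPM) than in control 3 (96.4 and 158 TPM). DMHCA 2 stood apart as well, with a sum of 212 TPM for 5 neutrophil genes, beside 8.37 to 50.2 TPM in the others. Nearly all of that sum was S100a8 (199 TPM), while S100a9 (12.9 TPM) was below all controls and Ly6g, Mpo and Elane were at or near 0. DMHCA 2 also held 182 TPM for 5 skeletal muscle genes, beside 458 to 782 TPM. Acta1, Ckm, Myh4 and Tnnt3 were lowest in DMHCA 2, whereas Myh1 (6.58 TPM) was above controls 1 and 2 (5.94 and 4.26 TPM). In TMM-normalized CPM (counts scaled to library size, with no correction for length), the adipocyte genes Adipoq, Plin1, Fabp4, Lep and Cidec were lower in DMHCA for 5 of 5 without overlap, beside 12.2% of all genes, and in TPM this held for all but Plin1. They had sums of 123 to 914 TPM in control and 68.7 to 68.8 TPM in DMHCA libraries. The part of these markers in the results was not tested, and in tissue RNA fewer cells of a type and less RNA per cell cannot be told apart.

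Across the 10 genes, the differences between DMHCA and control went in both directions. By edgeR's quasi-likelihood test with Benjamini-Hochberg adjustment over all genes, 0 of the 10 had an adjusted p under 0.05, in a comparison in which 0% of all genes did and the smallest adjusted p was 0.644. DESeq2 on the 5 samples, or on the 6 libraries as separate samples, also gave 0 of the 10. Without adjustment, 0 of the 10 genes had a p under 0.05, beside 7.61% of all genes tested. Fitted values were higher with DMHCA for 6 genes and lower for 4, and the median log2 fold change of the 10 was 0.08, beside -0.03 over all genes tested. Single libraries moved this median, to 0.0011 without control 3, 0.038 without control 1, 0.054 without DMHCA 3 and 0.18 without DMHCA 2, and it was 0.25 on the log2(TPM + 1) scale. In normalized CPM, every DMHCA sample lay above every control sample for 1 of the 10 genes, Txnrd1, and this was the case for 13.8% of all genes.

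**Figure D1:**
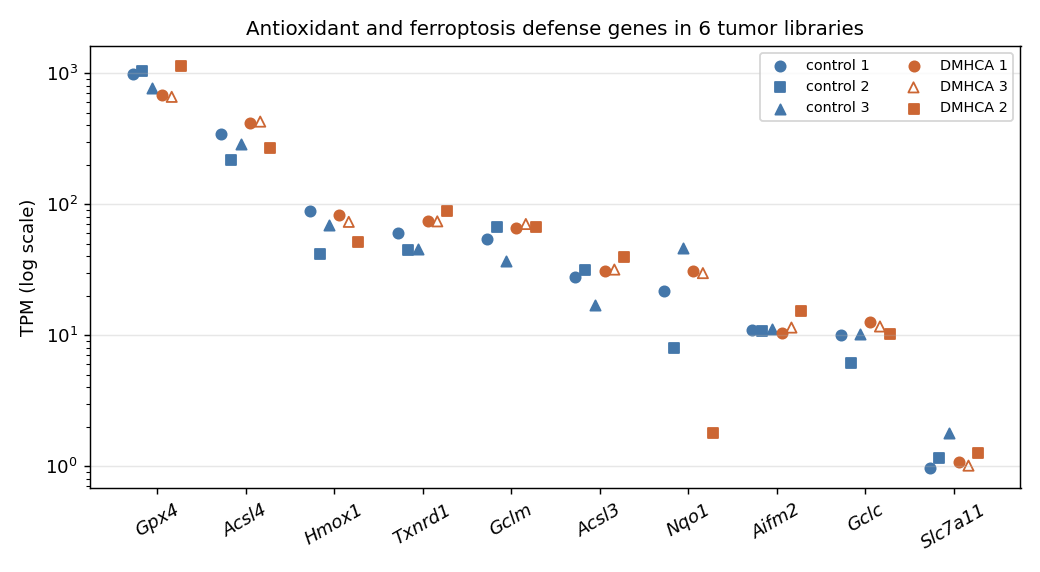
TPM (log axis) of the 10 genes in each of the 6 libraries, ordered from left to right by mean TPM, with control libraries in blue and DMHCA libraries in orange; the open triangle marks DMHCA 3, which was counted together with DMHCA 1. Gpx4 lies between 659 and 1133 TPM and Slc7a11 between 0.97 and 1.78 TPM, and the points of Nqo1 are spread the farthest, from 1.79 to 46.4 TPM.

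In level, the genes covered a wide range, and the order by mean TPM was Gpx4, Acsl4, Hmox1, Txnrd1, Gclm, Acsl3, Nqo1, Aifm2, Gclc and Slc7a11. The lowest library for Gpx4 (659 TPM) was above the highest for Acsl4 (427 TPM), and the lowest for Acsl4 (217 TPM) was above the highest for Hmox1 (88.6 TPM). Hmox1, Txnrd1 and Gclm overlapped in level, as did Aifm2 and Gclc. At the lower end, Slc7a11 did not exceed 1.78 TPM in any library.

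Of the enzymes that use NADPH or degrade heme, Txnrd1 had the most separated groups. Txnrd1 (ENSMUSG00000020250, chr10:82833951-82897712 on GRCm38, plus strand) encodes cytosolic thioredoxin reductase, a selenoprotein that recharges thioredoxin. It measured 60.4, 45.0 and 45.4 TPM in controls 1 to 3, 74.0 and 73.9 TPM in DMHCA 1 and 3, and 88.5 TPM in DMHCA 2. All DMHCA libraries were thus above all control libraries, and the gene's spread within groups was small, at the 4.1 percentile of 14987 genes with a mean of at least 1 CPM (pooled SD 0.13 on the log2 scale, median of those genes 0.40). In normalized counts it went from 117 ± 11.7 CPM in control samples (SD, n = 3) to 162 ± 7.92 CPM in DMHCA samples (SD, n = 2). The fold change was 1.38, with a 95% interval of 0.914 to 2.07. On the log2 scale this was 0.46 with a standard error of 0.25, and edgeR gave an unadjusted p of 0.106 and an adjusted p of 0.649. Txnrd1 stayed higher under all 16 alternative settings, with log2 fold changes from 0.38 to 0.70. The settings are not independent, since leaving out DMHCA 1 or DMHCA 3 keeps the other library of the pair. An unadjusted p under 0.05 was seen in 3 of the 16. These were edgeR on the 6 libraries, which counts the near-identical pair as independent, and limma on log2(TPM + 1) and log2(TPM + 0.1). On those TPM scales the median of all genes was itself higher by 0.19 and 0.22. The mitochondrial relative Txnrd2, chosen after its values were seen, was lower in the fit of counts, with a log2 fold change of -0.32 and an unadjusted p of 0.417 in edgeR. In TPM its DMHCA libraries (16.1 to 17.5) lay within the control range (12.1 to 18.8). The ratio of Txnrd1 to Txnrd2 TPM was 2.64 to 3.74 in control libraries and 4.38 to 5.06 in DMHCA libraries, which did not overlap. Txnrd1 TPM alone was already apart between groups, so the ratio is not a separate result.

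Nqo1 (ENSMUSG00000003849, chr8:107388225-107403206, minus strand) encodes a quinone reductase and is a widely used readout of NRF2 activity. It measured 21.8, 8.01 and 46.4 TPM in controls 1 to 3, 30.7 and 29.8 TPM in DMHCA 1 and 3, and 1.79 TPM in DMHCA 2. The highest of the 5 samples held 25.9 times the level of the lowest, and both DMHCA samples bracketed controls 1 and 2, so the groups overlapped. Its pooled SD of 1.93 on the log2 scale lay at the 96.8 percentile of spread. Mean levels were 27.0 ± 19.9 CPM (SD, n = 3) and 16.1 ± 20.4 CPM (SD, n = 2), and the log2 fold change of -0.75 had a 95% interval of -3.45 to 1.96 and an adjusted p of 0.851 in edgeR. The fit changed sign when 1 library was left out, to 0.22 without DMHCA 2 and to 0.01 without control 3. Among the epithelial markers, Krt19 also had its highest level in control 3 (435 TPM) and its lowest in DMHCA 2 (1.51 TPM), whereas Krt8, Krt18, Epcam and Cdh1 were not lowest in DMHCA 2, and the part of cell composition in the Nqo1 values was not tested.

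Hmox1 (ENSMUSG00000005413, chr8:75093621-75100589, plus strand) encodes the inducible heme oxygenase, which breaks heme down to biliverdin, carbon monoxide and iron. It measured 88.6, 41.9 and 69.9 TPM in controls 1 to 3, 83.3 and 73.3 TPM in DMHCA 1 and 3, and 51.8 TPM in DMHCA 2. In TPM the DMHCA libraries lay inside the control range. Mean levels were 72.6 ± 15.8 CPM (SD, n = 3) and 64.0 ± 22.4 CPM (SD, n = 2), with a log2 fold change of -0.18 (95% interval -0.97 to 0.61, adjusted p = 0.883 in edgeR) that turned to 0.18 without DMHCA 2. Since red cells and macrophages handle heme, their markers are given beside it: 5 erythroid genes summed to 3664 to 5457 TPM in control and 2167 to 3119 TPM in DMHCA libraries, and 5 macrophage genes summed to 424 to 1482 TPM and 450 to 551 TPM. Most of the macrophage sum was Lyz2 (352 TPM in control 2 and 1335 TPM in control 3), while Adgre1, Csf1r, Cd68 and Mrc1 overlapped between groups. Without overlap, 4 of the 5 erythroid genes were lower in CPM and 3 of the 5 in TPM, beside 12.2% of all genes lower in CPM. The part of these markers in the Hmox1 values was not tested. The constitutive heme oxygenase Hmox2 was of similar level, and the ratio of Hmox1 to Hmox2 TPM ranged from 0.703 in control 2 to 1.83 in DMHCA 1.

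The genes for cystine import and glutathione synthesis did not separate by group in normalized counts. Slc7a11 (ENSMUSG00000027737, chr3:49892526-50443614, minus strand), the cystine/glutamate antiporter, was the lowest of the 10 genes. It measured 0.97, 1.15 and 1.78 TPM in controls 1 to 3, 1.07 and 1.01 TPM in DMHCA 1 and 3, and 1.27 TPM in DMHCA 2, so that the DMHCA libraries lay within the control range. This came from 294 to 522 expected counts per library. Mean levels were 8.31 ± 2.72 CPM (SD, n = 3) and 6.10 ± 0.366 CPM (SD, n = 2), and the log2 fold change was -0.45 (95% interval -1.53 to 0.64, adjusted p = 0.778 in edgeR). Its partner Slc3a2, the heavy chain that carries the antiporter and other amino acid transporters to the membrane, had a far higher level of 156 TPM on average and a log2 fold change of -0.48 (adjusted p = 0.728 in edgeR).

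Gclc (ENSMUSG00000032350, chr9:77754535-77794485, plus strand) and Gclm (ENSMUSG00000028124, chr3:122245557-122270732, plus strand) encode the catalytic and the modifier subunit of glutamate-cysteine ligase, the rate-limiting enzyme of glutathione synthesis. Gclc measured 9.97, 6.14 and 10.3 TPM in controls 1 to 3, 12.7 and 11.7 TPM in DMHCA 1 and 3, and 10.2 TPM in DMHCA 2. Control 2 was low, and DMHCA 2 lay between the other controls. Its log2 fold change was 0.17 (95% interval -0.52 to 0.86, adjusted p = 0.869 in edgeR).

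Gclm measured 54.2, 67.2 and 37.1 TPM in controls 1 to 3, 65.5 and 70.5 TPM in DMHCA 1 and 3, and 67.4 TPM in DMHCA 2. In TPM the mean of the DMHCA pair and DMHCA 2 lay narrowly above all controls, although DMHCA 1 alone was below control 2, and in normalized counts, where control 2 held 74.0 CPM, both DMHCA samples held 59.7 CPM, and control 3 held 36.9 CPM, the groups overlapped. The effective length that RSEM assigned to Gclm enters TPM and not the counts, and a shorter length gives a higher TPM from the same count. It ran from 1150 bases in control 2 to 1367 bases in control 1, with 1158 to 1323 bases in DMHCA libraries. What set the 2 scales apart was not tested. The log2 fold change from counts was 0.13 (95% interval -0.67 to 0.92, adjusted p = 0.923 in edgeR), and it was -0.09 without control 3. The modifier subunit was 3.61 times (control 3) to 10.9 times (control 2) as abundant in TPM as the catalytic subunit, with the DMHCA libraries at 5.16 to 6.63 times. The exons of Gclm overlap those of Gm6061 on the same strand and Gm17494 on the opposite strand, and whether the authors' counting used strand is not given in the sources used here.

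The direct defenses against lipid peroxides were also not separated. Gpx4 (ENSMUSG00000075706, chr10:80047166-80056439, plus strand), the selenoenzyme that reduces phospholipid peroxides, was the most abundant of the 10 genes. It measured 982, 1035 and 765 TPM in controls 1 to 3, 686 and 659 TPM in DMHCA 1 and 3, and 1133 TPM in DMHCA 2. In TPM the near-identical DMHCA libraries were the lowest and the other DMHCA library was the highest of all. Mean levels were 531 ± 146 CPM (SD, n = 3) and 439 ± 134 CPM (SD, n = 2), and the log2 fold change of -0.27 had a 95% interval of -1.18 to 0.63 (adjusted p = 0.835 in edgeR). It was -0.034 without control 2 and -0.58 without DMHCA 2. Gpx4 made up 37.0% to 62.9% of the summed TPM of Gpx1, Gpx2, Gpx3, Gpx4, Gpx7 and Gpx8, with the extremes in control 2 and DMHCA 2.

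Aifm2 (ENSMUSG00000020085, chr10:61715263-61739260, plus strand) measured 10.9, 10.8 and 11.2 TPM in controls 1 to 3, 10.4 and 11.4 TPM in DMHCA 1 and 3, and 15.4 TPM in DMHCA 2. The controls and the pair of DMHCA libraries were close together and DMHCA 2 was above them. Mean levels were 18.5 ± 2.08 CPM (SD, n = 3) and 19.1 ± 3.86 CPM (SD, n = 2), with a log2 fold change of 0.04 (95% interval -0.68 to 0.76, adjusted p = 0.972 in edgeR). The sign of so small a value depended on the setting. Exons of Aifm2 overlap H2afy2 on the opposite strand.

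Of the acyl-CoA synthetases, Acsl4 (ENSMUSG00000031278, chrX:142317993-142390535, minus strand) measured 341, 217 and 288 TPM in controls 1 to 3, 419 and 427 TPM in DMHCA 1 and 3, and 268 TPM in DMHCA 2. In TPM, DMHCA 2 lay between controls 2 and 3, and the pair lay above all controls. In normalized CPM, DMHCA 2 (856 CPM) was below and the pair (1479 CPM) above all controls (994 to 1163 CPM). Mean levels were 1071 ± 85.4 CPM (SD, n = 3) and 1167 ± 441 CPM (SD, n = 2), and the log2 fold change was 0.12 (95% interval -0.76 to 1.01, adjusted p = 0.934 in edgeR), or 0.51 without DMHCA 2.

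Acsl3 (ENSMUSG00000032883, chr1:78657825-78707743, plus strand) measured 28.0, 31.2 and 17.0 TPM in controls 1 to 3, 30.8 and 31.7 TPM in DMHCA 1 and 3, and 39.8 TPM in DMHCA 2. Control 3 was low, and the mean of the pair was barely above control 2. The log2 fold change was 0.25 (95% interval -0.65 to 1.15, adjusted p = 0.849 in edgeR), and it was -0.01 without control 3. In every library Acsl4 exceeded Acsl3 in TPM, by 6.75 times in DMHCA 2 to 16.9 times in control 3, and it made up 65.7% to 79.8% of the summed TPM of Acsl1, Acsl3, Acsl4, Acsl5 and Acsl6. Exons of Acsl3 overlap Utp14b on the same strand.

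**Figure D2:**
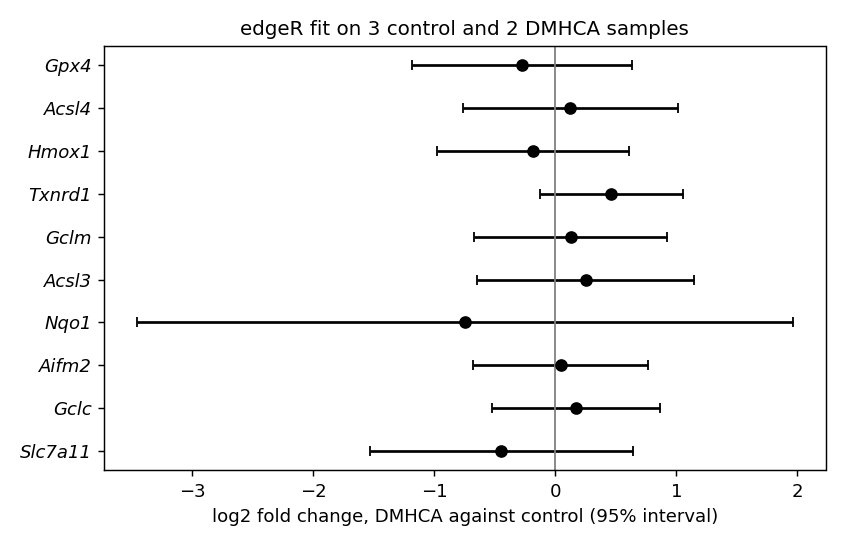
Log2 fold change of each gene, DMHCA against control, from the edgeR fit on 3 control and 2 DMHCA samples, with bars for the 95% interval and a line at 0. All 10 intervals include 0, from the narrowest, that of Txnrd1 (-0.13 to 1.05), to the widest, that of Nqo1 (-3.45 to 1.96).

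In linear terms, for Txnrd1 the upper bound was a 2.07-fold higher level, for Aifm2 the bounds were 0.626-fold and 1.70-fold, and for Gpx4 they were 0.442-fold and 1.55-fold. For Nqo1 the bounds ran from 0.091-fold to 3.89-fold. In TPM, the DMHCA samples lay above all control samples for 3 of the 10 genes (Txnrd1, Gclm and Acsl3), beside 23.2% of the 15388 genes with at least 1 TPM in 2 samples. On the TPM scale the median of all genes itself was higher by 0.19 in log2(TPM + 1), and TPM differences are to be read relative to it.

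The neighbors of these genes in the pathway were taken as 11 lists holding 134 genes, of which 130 were tested. Without adjustment, 4 higher and 6 lower genes had a p under 0.05, beside 3.53% higher and 4.08% lower over all genes, which are similar shares. Groups did not overlap for 15 higher and 15 lower genes of the 130, beside 13.8% and 12.2% of all genes. By edgeR 0 of the 130 had an adjusted p under 0.05, and the 10 genes with an unadjusted p under 0.05, the smallest of which was 0.00669 (Dhcr7), all had an adjusted p of 0.644. Without DMHCA 2, 6 of the 130 had an unadjusted p under 0.05. Over 16 alternative settings, Mboat2, Dhcr7 and Sephs2 kept an unadjusted p under 0.05 in 16, Fth1 and Gch1 in 15, Gstt2 in 13, Gstk1 in 12, Slc40a1 and Ptgs2 in 11 and Taldo1 in 9. Several of these settings count the near-identical pair as separate samples or nearly repeat the comparison as reported, so they are not independent. The median log2 fold change of the 130 was -0.10, and 78 of them were fitted lower, beside 10099 of the 19427 genes tested. This majority did not hold throughout, with 62 of 130 fitted lower without control 2 and 50 of 121 on the TPM scale.

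**Figure D3:**
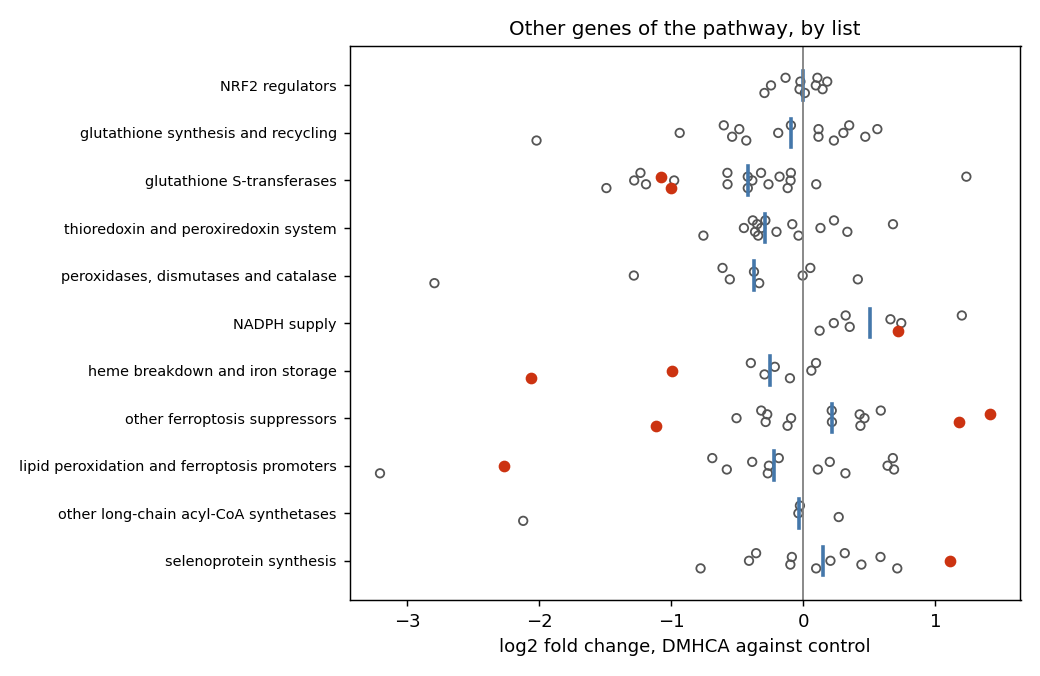
Log2 fold changes of the 130 tested pathway genes in their 11 lists, DMHCA against control; each circle is a gene, filled red circles have an unadjusted p under 0.05 in edgeR, and blue bars are list medians. The median lies at -0.42 for glutathione S-transferases and at 0.51 for the NADPH supply, and the remaining lists lie between these.

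Of 10 regulators of NRF2, 0 had an unadjusted p under 0.05 in edgeR, beside 7.61% of all genes tested. Nfe2l2, which encodes NRF2, held 90.2, 83.4 and 92.5 CPM in controls 1 to 3, 98.0 and 101 CPM in DMHCA 1 and 3, and 99.1 CPM in DMHCA 2. All DMHCA libraries were above all controls, by a small step with a log2 fold change of 0.18 and an adjusted p of 0.822 in edgeR. Keap1, the adaptor that directs NRF2 to degradation, had a log2 fold change of -0.13 (adjusted p = 0.924 in edgeR). Sqstm1, an autophagy receptor that binds Keap1, had the highest level of the 10 NRF2 regulators (303 TPM on average) and a log2 fold change of -0.29 (adjusted p = 0.824 in edgeR).

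Around glutathione, 18 of 20 glutathione S-transferases were fitted lower, with a median log2 fold change of -0.42, beside 10099 of 19427 and -0.03 over all genes tested. This count was 13 of 20, with a median of -0.23, without control 2, and on the TPM scale it was 14 of 19. Of these, Gstt2 (log2 fold change -1.08) and Gstk1 (-1.001) passed the unadjusted threshold, which neither did without control 1, without control 2 or without DMHCA 2, and both had an adjusted p of 0.644 in edgeR. Gsta3 went the other way without overlap (1.24, adjusted p = 0.644 in edgeR), and the most abundant, Mgst1 (788 TPM on average), had a log2 fold change of -0.39. Among 15 genes of glutathione synthesis and recycling 0 had an unadjusted p under 0.05, beside 7.61% of all genes tested. Ggt5, a gamma-glutamyltransferase, was lower without overlap in CPM, with 7.60, 5.36 and 37.1 CPM in controls and 3.20 to 5.27 CPM in DMHCA libraries. In TPM, control 2 (2.02) was below the DMHCA pair (2.14 and 2.49). Leaving out control 3, its high library, took the Ggt5 log2 fold change from -2.02 to -0.66.

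The enzymes that supply NADPH, the reductant that Txnrd1 uses, were fitted higher for 8 of 8 entries, with a median log2 fold change of 0.51. Over all genes tested, 9328 of 19427 were fitted higher, with a median of -0.03. The 8 NADPH entries include 2 for Nnt, and the count was 6 of 8, with a median of 0.33, without DMHCA 2. Taldo1, the transaldolase of the pentose phosphate pathway, held 240, 165 and 218 CPM in controls 1 to 3, 356 and 364 CPM in DMHCA 1 and 3, and 314 CPM in DMHCA 2. Its groups did not overlap, and the log2 fold change was 0.72 (adjusted p = 0.644 in edgeR). In the thioredoxin and peroxiredoxin list, to which Txnrd1's substrate Txn1 belongs, 11 of 15 genes were fitted lower in counts (median -0.29, or -0.043 without control 2), and 7 of 15 on the TPM scale (median 0.08). Prdx1, the most abundant of them, had a log2 fold change of -0.35 (adjusted p = 0.781 in edgeR).

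Of the other peroxidases and dismutases, 7 of 9 were fitted lower (median -0.37), beside 10099 of 19427 genes tested. An unadjusted p under 0.05 was seen for 0 of the 9, beside 7.61% of all genes tested. Gpx1, the most abundant, had a log2 fold change of -0.61 (adjusted p = 0.696 in edgeR). Gpx8, a peroxidase of the endoplasmic reticulum, was lower without overlap at 12.0, 33.2 and 10.5 CPM in controls and 7.07 to 7.72 CPM in DMHCA libraries, with a log2 fold change of -1.28 that was -0.57 without control 2.

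Among genes of heme breakdown and iron storage, which handle what Hmox1 releases, Fth1 showed the largest difference of those with an unadjusted p under 0.05 in the list. Fth1 encodes the ferritin heavy chain, which oxidizes and stores iron. It held 1919, 4581 and 1372 CPM in controls 1 to 3, 687 and 651 CPM in DMHCA 1 and 3, and 567 CPM in DMHCA 2. Every DMHCA library was below every control, and control 2 was far above the other controls. The log2 fold change was -2.06 (adjusted p = 0.644 in edgeR), and it was -1.40 to -2.38 with single libraries left out. Fth1 has near-identical copies in the genome and its expected counts were not whole in every library, and the share of its reads that belongs to such copies was not tested. Slc40a1, the iron exporter ferroportin, had a log2 fold change of -0.997 (adjusted p = 0.644 in edgeR), with control 3 (39.3 CPM) level with DMHCA 2 (39.0 CPM). Of the 8 genes of this list, 6 were fitted lower, with a median log2 fold change of -0.25 that was -0.076 without control 2 and -0.032 on the TPM scale.

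Beside Gpx4 and Aifm2, 8 of 15 other genes tied to the suppression of ferroptosis were fitted higher and 7 lower (median 0.22). The median was 0.073 without control 3 or without DMHCA 2 and 0.44 on the TPM scale, and 11 of the 15 were fitted higher without control 2 or without DMHCA 2. Mboat2, which places monounsaturated fatty acids into membrane phospholipids and so works downstream of an activity like that of Acsl3, held 23.4, 22.2 and 17.6 CPM in controls 1 to 3, 59.0 and 58.7 CPM in DMHCA 1 and 3, and 35.3 CPM in DMHCA 2. All DMHCA libraries were above all controls, with a log2 fold change of 1.18 (adjusted p = 0.644 in edgeR). Its exons overlap 2900060N12Rik on the opposite strand.

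Dhcr7 held 71.4, 59.5 and 35.3 CPM in controls 1 to 3, 169 and 177 CPM in DMHCA 1 and 3, and 119 CPM in DMHCA 2, again without overlap. Its log2 fold change was 1.41 (adjusted p = 0.644 in edgeR). Dhcr7 stands in this list because it acts on 7-dehydrocholesterol, a sterol known to trap radicals, and as the last enzyme of cholesterol synthesis it consumes that sterol, so it does not suppress ferroptosis itself. Gch1, the first enzyme of the synthesis of tetrahydrobiopterin, a radical-trapping cofactor, was lower without overlap, at 17.6, 27.3 and 23.0 CPM in controls and 9.35 to 11.3 CPM in DMHCA libraries (log2 fold change -1.12, adjusted p = 0.644 in edgeR). Spr, the last enzyme of that synthesis and the most abundant gene of the list, had a log2 fold change of -0.09 in counts and 0.15 in TPM.

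Of the genes that promote lipid peroxidation, Lpcat3, a known LXR target that places polyunsaturated acyl chains, such as those activated by Acsl4, into phospholipids, measured 43.3, 46.0 and 32.4 TPM in controls 1 to 3, 62.0 and 61.1 TPM in DMHCA 1 and 3, and 92.1 TPM in DMHCA 2. In TPM all DMHCA libraries were above all controls, and in CPM the groups met, with control 2 at 85.7 and the DMHCA pair at 85.6. The log2 fold change was 0.69 (adjusted p = 0.646 in edgeR), and an unadjusted p under 0.05 was seen in 4 of 16 alternative settings. Ptgs2, which encodes COX-2 and serves as a marker of ferroptosis more than as its driver, held 11.6, 2.95 and 21.4 CPM in controls and 1.91 to 3.06 CPM in DMHCA libraries. Control 2 lay within the DMHCA range, and the log2 fold change was -2.27 (95% interval 0.0506-fold to 0.855-fold, adjusted p = 0.644 in edgeR). It was -1.56 without control 3 and -1.12 in log2(TPM + 1), and neither had an unadjusted p under 0.05. Sat1, a polyamine acetyltransferase and the most abundant of this list, was lower without overlap (-0.69, adjusted p = 0.654 in edgeR). Acsl5, the most abundant of the remaining acyl-CoA synthetases, had a log2 fold change of 0.27 (adjusted p = 0.832 in edgeR).

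Gpx4 and Txnrd1 are selenoproteins. Beside 7.61% of all genes tested, 1 of 12 genes of selenoprotein synthesis and supply had an unadjusted p under 0.05. This was Sephs2, which makes the selenium donor for selenocysteine, with 49.6, 23.8 and 31.2 CPM in controls 1 to 3, 83.0 and 84.8 CPM in DMHCA 1 and 3, and 65.0 CPM in DMHCA 2. Its groups did not overlap, and the log2 fold change was 1.11 (adjusted p = 0.644 in edgeR). Selenop, the plasma carrier of selenium and the most abundant of the list, had a log2 fold change of -0.41 (adjusted p = 0.761 in edgeR).

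**Figure D4:**
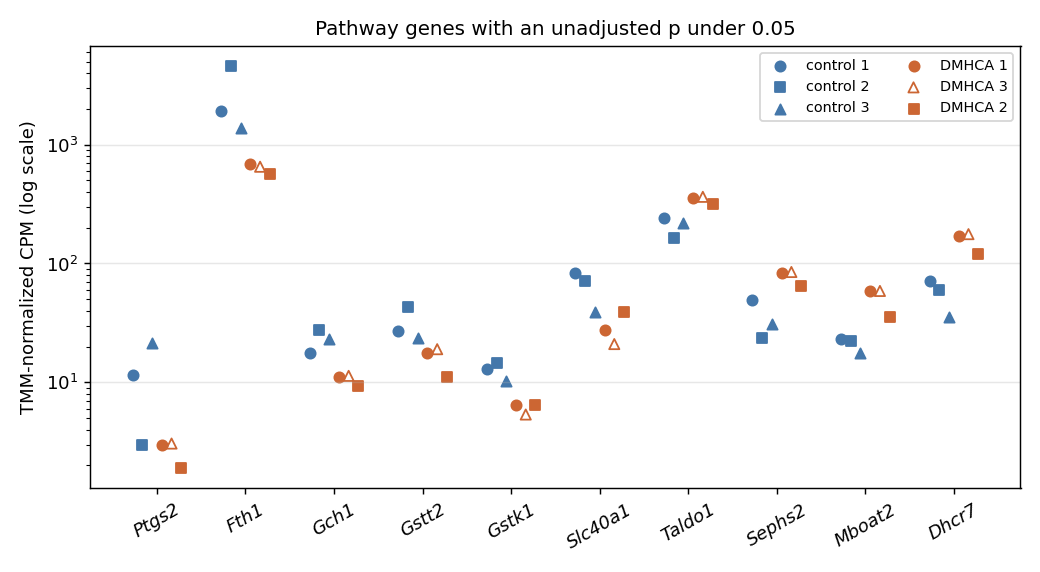
TMM-normalized CPM (log axis) in each of the 6 libraries for the 10 pathway genes with an unadjusted p under 0.05, ordered by log2 fold change from Ptgs2 (-2.27) to Dhcr7 (1.41); colors and symbols separate control and DMHCA libraries, with DMHCA 3 as open triangles. The groups overlap for Ptgs2, control 3 and DMHCA 2 are nearly level for Slc40a1 (39.3 and 39.0 CPM), and the groups are apart for the other 8 genes.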

How the data were processed

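RNAseq values of 6 bulk libraries were used. The authors checked reads with FastQC 0.11.9, trimmed them with cutadapt 2.9, and deposited RSEM 1.3.1 expected counts, TPM and FPKM per Ensembl gene (mm10, Bowtie2 2.4.1). FPKM was not used here. Use of strand is not given in the sources used here. An expected count need not be whole, since RSEM divides reads that fit several genes, and 19.6% to 23.5% of genes per library were not whole. Expected counts were rounded and compared with edgeR 4.0.16 in R 4.3.3 (TMM, filterByExpr at its defaults, 10 reads per sample and 15 in all, quasi-likelihood F-test, Benjamini-Hochberg adjustment over 19427 genes at 0.05). DMHCA libraries 1 and 3 were merged because their coefficient of variation, taken over genes averaging 100 counts or more, was below 0.1 and was exceeded over 5 times by each other pair's. Intervals are from the fit. Levels are TPM as deposited by the authors. DESeq2 1.42.0, limma 3.58.1 on log2(TPM + 1), other filters and left-out libraries were alternatives. The 10 genes, the lists and the tests were chosen with earlier results of these data known. Pathway genes are named if their unadjusted p was under 0.05, if groups did not overlap with a log2 fold change of at least 1 in size, or if they had the highest TPM of their list. Nfe2l2, Keap1 and Lpcat3 are named in any case, and Slc3a2, with the highest TPM of its list, also as the partner of Slc7a11. Txnrd2 and Hmox2, relatives of 2 of the 10 genes, and Krt19 were chosen after their values were seen. Coordinates are those of GENCODE M21 (GRCm38), which held 99.56% of the genes, and promoter sequences are from RefSeq (GRCm38.p6). Scripts were tested on simulated data, in which edgeR gave an adjusted p under 0.05 to 9% of 4-fold and 46.5% of 8-fold changes. A count of 0 genes thus does not show that levels were unchanged.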

Additional observations from a re-analysis of the deposited data

How the results depend on the processing

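The number of all genes with an adjusted p under 0.05, 0 in edgeR, was 244 with DESeq2 on the 5 samples, 887 with DESeq2 on the 6 libraries as separate samples, which counts the near-identical pair as independent, and 16 without a filter on low counts. None of the 10 genes was among them in any setting. The pathway genes with an adjusted p under 0.05 were 7 with DESeq2 on the 6 libraries: Mboat2 (log2 fold change 1.297), Dhcr7 (1.501), Sephs2 (1.18), Fth1 (-2.03), Gstk1 (-1.02), Gch1 (-1.07) and Ptgs2 (-2.15). Of the 10 genes, 1 (Txnrd1) had an unadjusted p under 0.05 with edgeR on the 6 libraries, with limma on log2(TPM + 1) and with limma on log2(TPM + 0.1). Pathway genes with an unadjusted p under 0.05, 10 in the comparison as reported, were 24 with DESeq2 and 23 with edgeR on the 6 libraries, 17 without a filter and 17 on each TPM scale, and 7 to 15 with single libraries left out. These counts cover each of the 134 listed genes that a setting tested. Among the 130 genes tested in the comparison as reported, they were 23 with DESeq2 on the 6 libraries, 16 without a filter and 6 without DMHCA 2.

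Signs were not stable for values near 0. Aifm2 was -0.019 with DESeq2 and -0.041 with edgeR on the 6 libraries, and -0.007 with a filter at 1 CPM. Keap1 was 0.034 and 0.0073 in those 6-library fits, and Spr was 0.15 on each TPM scale. With single libraries left out, log2 fold changes ranged from -1.13 to 0.22 for Nqo1, -0.34 to 0.18 for Hmox1, -0.093 to 0.41 for Gclm, -0.14 to 0.14 for Aifm2, -0.0099 to 0.58 for Acsl3, -0.22 to 0.34 for Keap1, -0.34 to 0.15 for Spr and -0.082 to 0.54 for Acsl5. Ranges without a change of sign were -0.49 to -0.0003 for Sqstm1, -0.51 to -0.036 for Prdx1, -0.57 to -0.0998 for Selenop and -0.84 to -0.29 for Gpx1. They were -0.70 to -0.25 for Slc7a11, 0.059 to 0.39 for Gclc, -0.87 to -0.30 for Mgst1 and -0.71 to -0.21 for Slc3a2. The cause was not tested. Without DMHCA 2, 1 DMHCA sample remained and was assumed to vary like the controls.

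Replicate numbers were not taken to pair the libraries. Correlations of deviations from group means were -0.0468, 0.316 and 0.330 for same-numbered libraries, and -0.363 to 0.319 for differently numbered ones. With DMHCA 1 and 3 nearly identical, these correlations depend on each other and cannot decide whether the numbers pair libraries. With the replicate number as a block on the 6 libraries, 0 genes had an adjusted p under 0.05, 3207 genes an unadjusted p under 0.05 (2912 without the block), 33 of them pathway genes, and Aifm2 was -0.049. The lowest of the 10 genes, Slc7a11, rested on 294 to 522 expected counts per library, and no fit at another depth was made.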

Other observations

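Gpx2, the gastrointestinal glutathione peroxidase and a known NRF2 target, was chosen after its values were seen because its level differed so widely between libraries. It held 108, 634 and 3.11 CPM in controls 1 to 3, 3.49 and 1.92 CPM in DMHCA 1 and 3, and 67.5 CPM in DMHCA 2. The groups overlapped, and the log2 fold change of -2.79 had an unadjusted p of 0.217 in edgeR. Its order of libraries was not that of Nqo1, which was highest in control 3 and lowest in DMHCA 2.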
